A study of Mus musculus with 18 samples.

Results

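Total cytoplasmic RNA from mouse osteosarcoma cells was compared with and without deletion of Prmt1, in 3 knockout and 3 control libraries chosen by their sample labels, 6 of the 18 libraries of the series. Of the 19862 genes in the table, 17515 were above 0 in at least 3 libraries of the series and were tested. The cells are osteosarcoma lines from mice with conditional p53 and Rb deletion, on a mixed background and of postnatal day 299. They carry floxed Prmt1 alleles (Prmt1 f/f) and CreER, a Cre recombinase that tamoxifen switches on. Control cells, labelled wild type, received ethanol (EtOH), and cells labelled Prmt1-/- received 4-hydroxytamoxifen (4OHT). Every group carries the floxed alleles and CreER, and no cells without floxed alleles received 4OHT, so drug, Cre and deletion cannot be told apart. The series also sequenced Light and Heavy polysome fractions of the same 2 conditions, used here only where the Total change is compared with theirs. The labels leave unsaid whether replicate libraries were separate cultures or 1 line, so each p-value speaks only of the spread among these libraries, part of which may be technical.

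Prmt1 encodes the enzyme that makes most of the asymmetric dimethylarginine in mammalian cells. Its substrates include histone H4, many RNA-binding proteins and several transcription regulators. Cells are known to depend on such methylation for transcription, splicing, DNA repair and signalling. Total RNA is cytoplasmic lysate before it is spread over a gradient, so it gives the abundance of each message whatever its ribosome load.

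Values are counts per 1000000 reads (CPM), and a log2 change is the knockout minus the control mean of log2(CPM + 1), which understates the change of genes under a few CPM. Tests are from limma with Benjamini-Hochberg adjustment over all genes, called at an adjusted p under 0.05. The SE pools the spread of all 6 groups of libraries, while an SD is that of 1 group of n = 3. Total libraries held 32.8 to 52.1 M reads (M for 1000000), at which 1 read is 0.0192 to 0.0305 CPM. Knockout library 1 lay farthest from its group, at a root mean square deviation of 0.210 on the log2 scale, against 0.124 and 0.141 for knockout libraries 2 and 3 and 0.0996 to 0.180 for the controls. Prmt1 was 256, 277 and 285 CPM in the control libraries and 147, 176 and 173 CPM in the knockout libraries (log2 change -0.72, SE 0.21, adjusted p = 0.0202), a call that was lost without control library 2 (adjusted p = 0.0562), control library 3 (0.0614) or knockout library 1 (0.0809). The sources used here do not say which Prmt1 exons are deleted. Trp53, which encodes p53, was at 11.8 ± 1.43 and 10.7 ± 0.342 CPM (SD, n = 3) and Rb1 at 3.50 ± 0.635 and 5.41 ± 1.46 CPM. Neither was called (adjusted p = 0.67 and 0.0748), and reads from exons that remain after a deletion count toward a gene.

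The calls covered 26.4% of the genes tested, with 16.1% higher and 10.3% lower in knockout cells. By level, the share called went from 6.80% of the 3440 genes under 0.1 CPM to 41.3% of the 1887 genes at 1 to 5 CPM and 20.7% of the 299 genes above 500 CPM. Higher calls outnumbered lower ones most among the weakly expressed genes. At 0.1 to 1 CPM 28.3% were higher and 8.32% lower, while at 10 to 50 CPM the shares were 15.1% and 14.3%. The 95% confidence interval of the change lay within 1.5-fold in either direction for 5468 of the 11754 genes with at least 1 CPM (46.5%). It lay wholly beyond 1.5-fold for 913 of them (7.77%). The balance of directions depends on scaling: 48.8% of the called genes were higher after quantile normalization and 53.7% after median-of-ratios scaling, against 60.9% as deposited.

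**Figure D1:**
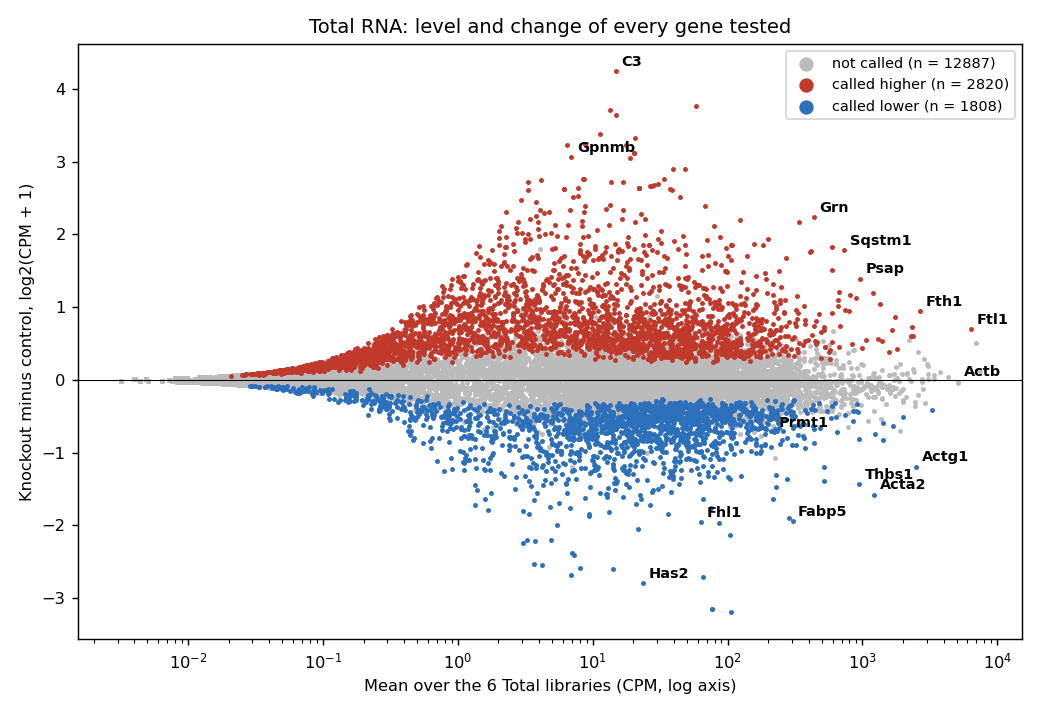
Each point is 1 of the genes tested, with its mean over the 6 Total libraries on a log axis in CPM and its change as knockout minus control in log2(CPM + 1) units, red where called higher (2820 genes) and blue where called lower (1808). The spread of changes narrows below 1 CPM because of the added 1, and abundant messages are called in both directions.

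As a sum, markers of the mesenchymal lineage were high in all 6 libraries and those of other lineages were low. The type I collagen gene Col1a2 was at 2047 ± 291 and 2209.6 ± 457 CPM and Vim, the mesenchymal intermediate filament, at 3366 ± 164 and 3378 ± 74.5 CPM. Of the 12 tested markers of mesenchymal cells and osteoblasts 3 rose and 3 fell. The osteoblast transcription factors fell, Runx2 from 77.6 ± 6.25 to 47.5 ± 3.76 CPM and Sp7 from 5.46 ± 0.269 to 1.47 ± 0.916 CPM. The late osteoblast gene Ibsp was at 0 in every knockout library and not in every control library, but was not among the genes called lower. Alpl, the alkaline phosphatase of osteoblasts, rose from 9.21 ± 1.88 to 27.9 ± 1.45 CPM, and Spp1, osteopontin, from 22.6 ± 6.24 to 39.8 ± 7.19 CPM, the latter not called without control library 2 or 3 or knockout library 1 or 2 (adjusted p = 0.0685 to 0.114). The 13 mesenchymal and osteoblast markers summed to 7058 to 8594 CPM in control and 8201 to 9271 CPM in knockout libraries. Of 11 macrophage markers 4 rose and the list summed to 6.75 to 9.003 CPM against 16.7 to 20.1 CPM, with Ptprc, Emr1, Itgam, Tyrobp and Aif1 at 0 in every control library and Emr1 and Tyrobp at 0 in every knockout library. Of 8 epithelial markers 4 rose, from a sum of 0.771 to 1.46 CPM to one of 7.47 to 10.95 CPM, of which Krt14 gave most (0.566 ± 0.110 to 6.29 ± 0.829 CPM). Of 8 endothelial markers 2 rose, from a sum of 7.496 to 8.97 CPM to one of 12.6 to 14.3 CPM. The 6 tested chondrocyte markers, of which 1 rose and 1 fell, summed to 26.5 to 34.03 CPM against 34.6 to 61.96 CPM. Of 8 tested adipocyte and muscle markers 2 rose, with sums of 10.4 to 10.96 CPM and 9.67 to 13.4 CPM, and Adipoq, Myod1 and Myog were at 0 in every library. All 3 tested lymphocyte markers rose, from a sum of 0.186 to 0.519 CPM to one of 0.553 to 1.35 CPM, with Cd3d and Ms4a1 at 0 in every library. No osteoclast marker of 5 was called. Fewer cells of a type and less RNA per cell cannot be told apart in bulk RNA, and the part of these markers in the results below was not tested.

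Among the 15 called genes with the largest gains in mean CPM were both ferritin chains, the lysosomal genes Lamp1, Psap and Ctsb, the antioxidant genes Hmox1 and Nqo1 and the matrix genes Bgn, Fbln2, Fn1 and Aebp1. Among the 15 with the largest losses were the actins Actg1 and Acta2, the tropomyosins Tpm1 and Tpm4, the thymosin Tmsb4x and the secreted matrix-associated proteins Thbs1, Ctgf and Cyr61. CPM is a share of reads that is not corrected for transcript length, so this order is one of reads gained or lost, not of molecules. Fth1, the ferritin heavy chain, was at 1791, 1786 and 1873 CPM in the control libraries and 3789, 3499.8 and 3196 CPM in the knockout libraries (log2 change 0.94, SE 0.20, adjusted p = 0.00197). Every knockout library was above every control library. Sqstm1, the autophagy receptor p62, was at 311, 326 and 349.5 CPM in the control libraries and 1129, 1100.5 and 1172 CPM in the knockout libraries (log2 change 1.79, SE 0.16, adjusted p = 6e-07). Grn, which encodes the lysosomal glycoprotein progranulin, was at 129, 174 and 149.7 CPM in the control libraries and 877, 660.4 and 622 CPM in the knockout libraries (log2 change 2.24, SE 0.24, adjusted p = 4.38e-06). For Sqstm1 and Grn the lowest knockout library again exceeded the highest control library by a wide margin. On the other side, Actg1, the cytoplasmic gamma actin, was at 3575, 2575 and 4177 CPM in the control libraries and 961, 1592 and 2101 CPM in the knockout libraries (log2 change -1.19, SE 0.25, adjusted p = 0.00215). Acta2, the smooth muscle alpha actin, was at 1795, 1818 and 1895 CPM in the control libraries and 549, 619 and 678 CPM in the knockout libraries (log2 change -1.58, SE 0.11, adjusted p = 4.04e-08). Fabp5, a fatty acid binding protein, was at 486, 481 and 479.9 CPM in the control libraries and 128, 124 and 122 CPM in the knockout libraries (log2 change -1.94, SE 0.18, adjusted p = 1.13e-06). The Actg1 libraries spread widely within each group and still did not overlap between groups, whereas those of Fabp5 were tight. In RefSeq's annotation of GRCm38.p6 these genes lie at chr19:9980600-9985111 (Fth1), chr11:50200152-50210820 (Sqstm1), chr11:102430507-102436809 (Grn), chr11:120345687-120348495 (Actg1), chr19:34240336-34255585 (Acta2) and chr3:10012585-10016610 (Fabp5). Other large gains were in Bgn and Fbln2, matrix proteins that rose from 1744 ± 88.4 to 2881 ± 113 CPM and 1245 ± 169 to 2259.6 ± 289 CPM, and in Aebp1, a collagen-binding protein whose gene overlaps Pold2 (262 ± 49.4 to 921 ± 43.6 CPM). Other large losses were in Thbs1, the matricellular thrombospondin (1384 ± 84.2 to 512 ± 26.6 CPM), Cxcl12, the chemokine ligand of Cxcr4 (1821 ± 102 to 1033 ± 110.0 CPM), and Dap, a regulator of autophagy (453 ± 11.7 to 121 ± 20.1 CPM). Ferritin, actin, ubiquitin and Fabp5 genes have processed pseudogenes of near-identical sequence, and the sources used here do not say how shared reads were placed. Of other genes named, Rb1 overlaps Lpar6, Runx2 Supt3, Pdgfra Mir7025, Fgfr1 Gm16159, Srf Mir6976 and Actg1 Mir6935.

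**Figure D2:**
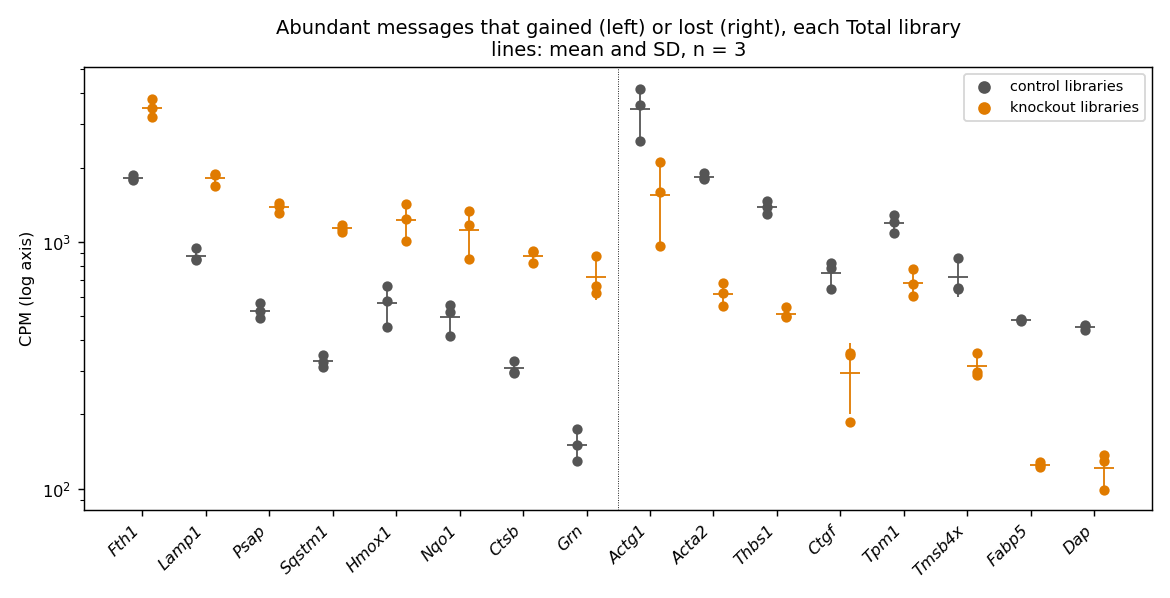
Points are the CPM of each Total library on a log axis for 8 abundant messages that gained and 8 that lost, grey for control and orange for knockout, with the mean and SD (n = 3). The groups do not overlap for any of the 16, and Actg1 and Ctgf spread most within a group.

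Lysosomal messages rose broadly. The lysosome is the acid compartment in which proteins, lipids and sugars are broken down, filled by soluble hydrolases and acidified by the V-type proton pump. A list of 66 lysosomal enzymes, membrane proteins, pump subunits and their regulators was written after the largest gains had been seen, so its count is a description. Of its 65 tested members 43 rose and 2 fell, with a median log2 change of 0.73 against 0.01 over all genes tested. Without knockout library 1, 37 rose and 2 fell. The members summed to 6737, 7337 and 6911 CPM in the control libraries and 14563, 13572 and 12899.9 CPM in the knockout libraries. In Heavy and Light RNA the medians of the same members were 0.57 and 1.08, against 0.02 and 0.05 over all genes tested. These fractions have libraries of their own but may come from the same lysates as Total RNA, so they are not an independent check. Among the aspartic and cysteine proteases, Ctsd rose from 187 ± 16.5 to 641 ± 72.1 CPM, Ctsb, which overlaps Fdft1, from 308 ± 18.9 to 881 ± 52.7 CPM, Ctsl from 406 ± 20.7 to 941 ± 40.3 CPM and Ctso from 1.69 ± 0.636 to 8.90 ± 4.45 CPM. Each of these cathepsins had knockout libraries above all controls, with log2 changes of 1.77 (SE 0.16), 1.51 (SE 0.11), 1.21 (SE 0.10) and 1.82 (SE 0.26). Lipid breakdown was represented by Psap, the precursor of the saposins (527 ± 36.3 to 1384 ± 64.2 CPM), Gm2a, the GM2 ganglioside activator (5.68 ± 1.07 to 23.3 ± 2.51 CPM), and Gla, alpha-galactosidase A (13.02 ± 0.621 to 46.5 ± 4.66 CPM). The membrane glycoproteins Lamp1 and Gpnmb rose from 879 ± 54.8 to 1809 ± 104 CPM and 0.656 ± 0.120 to 13.2 ± 4.44 CPM. Gpnmb had the largest change of the list (log2 change 3.06, SE 0.26). The list did not move as one, since Glb1, the lysosomal beta-galactosidase, whose gene overlaps Tmppe, was at 24.4, 27.4 and 25.7 CPM in the control libraries and 8.33, 8.34 and 6.77 CPM in the knockout libraries (log2 change -1.61, SE 0.19, adjusted p = 1e-05). Arsb, arylsulfatase B, fell as well, from 44.8 ± 1.75 to 26.96 ± 1.85 CPM. The pump subunit Atp6v1g1 was at 233 ± 7.92 and 267 ± 29.5 CPM and acid ceramidase, Asah1, which overlaps Frg1, at 97.2 ± 11.5 and 147 ± 35.6 CPM, neither called (adjusted p = 0.43 and 0.093). Of the transcription factors that bind lysosomal promoters, Mitf rose from 2.54 ± 0.560 to 5.04 ± 0.277 CPM and Tfe3 from 57.7 ± 5.19 to 72.4 ± 3.85 CPM (log2 change 0.33, SE 0.10, adjusted p = 0.0212), the Tfe3 call being lost after median-of-ratios scaling (adjusted p = 0.0791) and without control library 1 (0.109), knockout library 1 (0.0759) or knockout library 3 (0.0587). Tfeb was at 10.2 ± 1.12 and 12.3 ± 0.334 CPM (adjusted p = 0.158). Lysosomal messages are also abundant in macrophages, whose marker values are given above.

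Promoter windows of these genes were searched for TCACGTG, the core of the CLEAR element through which TFEB and its relatives act, on both strands, a motif chosen after the values were seen. Windows are those of RefSeq for GRCm38.p6, from 250 bases before to 50 bases after a gene's annotated start, and existed for 53 of the lysosomal genes. TCACGTG, which contains the E-box CACGTG, was in 13 of the 53 (24.5%), against 6.51% of the 9322 genes with a window and at least 1 CPM. The element is known from lysosomal promoters, so a high share was built into a lysosomal list. The holders include Glb1, which fell. The share was 5.49% among called genes at least 2-fold higher and 4.47% among those at least 2-fold lower. Over all genes called higher it was 6.66%, and over all called lower 5.59%. The windows of the 2 called lysosomal genes with the highest changes that hold it are shown 5′ to 3′ with the matches in capitals. They are at chr7:142387778-142388077 on the minus strand for Ctsd and chrX:134600956-134601255 on the minus strand for Gla.
Ctsd: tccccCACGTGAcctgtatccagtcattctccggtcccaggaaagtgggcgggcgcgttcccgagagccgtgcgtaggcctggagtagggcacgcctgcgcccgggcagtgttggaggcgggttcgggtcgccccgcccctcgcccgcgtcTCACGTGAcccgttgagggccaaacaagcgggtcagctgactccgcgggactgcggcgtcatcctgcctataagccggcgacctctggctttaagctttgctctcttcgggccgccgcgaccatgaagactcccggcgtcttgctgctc
Gla: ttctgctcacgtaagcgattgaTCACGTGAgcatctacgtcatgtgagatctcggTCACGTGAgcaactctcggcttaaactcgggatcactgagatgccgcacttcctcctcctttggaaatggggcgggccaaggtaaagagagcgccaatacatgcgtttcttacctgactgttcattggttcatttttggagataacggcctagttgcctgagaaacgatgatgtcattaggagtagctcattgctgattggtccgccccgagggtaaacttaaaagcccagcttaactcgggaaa
Counting each strand, the Ctsd window has 3 matches and the Gla window 4, since TCACGTGA reads the same on both. A match of letters is a description and not a bound site.

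Autophagy genes rose more often than they fell. Of 32 autophagy genes 9 rose and 1 fell (median log2 change 0.24). The rising members included Sqstm1, described above, Map1lc3b, the membrane-bound LC3 protein, whose gene overlaps Zcchc14 (159 ± 7.24 to 333 ± 39.02 CPM), and Atg14, a subunit of the phosphoinositide kinase complex (9.64 ± 0.812 to 19.2 ± 0.919 CPM). Ulk2, an initiating kinase, was at 23.5, 18.2 and 17.4 CPM in the control libraries and 7.48, 5.38 and 5.16 CPM in the knockout libraries (log2 change -1.57, SE 0.23, adjusted p = 7.89e-05). Gabarap, another LC3-family gene, was at 296 ± 18.04 and 373 ± 51.4 CPM and was not called (adjusted p = 0.19). In a list of iron genes, also written after the values were seen, 6 of 14 rose and none fell. Besides ferritin they included Tfrc, the transferrin receptor that imports iron (124 ± 17.8 to 218 ± 14.9 CPM), and Hfe, a regulator of that uptake (0.587 ± 0.0986 to 2.55 ± 0.586 CPM). The light chain gene Ftl1 rose from 4838 ± 316 to 7848 ± 285 CPM (log2 change 0.70, SE 0.20, adjusted p = 0.0146), a call that was lost after quantile normalization (adjusted p = 0.146) and without control library 1 (0.0513).

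NRF2 is the transcription factor of the oxidant and electrophile response. A list of its targets and of glutathione genes had, as reported, the second highest share of rising members after the lysosomal list. Of 32 members 18 rose and 1 fell, with a median log2 change of 0.49. Fewer rose without control library 1 (13), control library 2 or 3 (14) or knockout library 1 or 2 (15). The rank depends on scaling. After median-of-ratios scaling 15 of 32 rose, a smaller share than the 10 of 20 of the metalloproteinase list. Hmox1, heme oxygenase, was at 577, 451 and 665 CPM in the control libraries and 1011, 1237 and 1430.2 CPM in the knockout libraries (log2 change 1.12, SE 0.21, adjusted p = 0.000855). Nqo1, a quinone reductase, was at 553, 416 and 519 CPM in the control libraries and 852, 1174 and 1335 CPM in the knockout libraries (log2 change 1.16, SE 0.21, adjusted p = 0.000501). The control and knockout libraries of both did not overlap. The oxidant-induced Osgin1 rose from 42.6 ± 5.72 to 151 ± 14.8 CPM, the glutathione transferases Gstm1 and Gsta4 from 127 ± 11.97 to 415 ± 112 CPM and 70.6 ± 1.05 to 180.3 ± 7.51 CPM, and the extracellular superoxide dismutase Sod3 from 1.21 ± 0.330 to 9.34 ± 5.16 CPM. The member that fell was Keap1, which targets NRF2 for degradation, from 60.6 ± 3.98 to 27.1 ± 0.214 CPM (log2 change -1.13, SE 0.10). The abundant peroxiredoxin Prdx1, which overlaps AV051173, and thioredoxin Txn1 were at 903 ± 55.6 and 1048 ± 51.7 CPM and 1007 ± 70.5 and 909.9 ± 27.8 CPM and were not called (adjusted p = 0.3 and 0.717).

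Contractile and actin-regulatory messages fell more often than they rose. Serum response factor (SRF) binds the CArG box of such genes with coactivators that sense free actin, and many of its targets form stress fibres. In a list of 51 such genes, again written after the largest losses had been seen, 18 of 51 fell and 5 rose, with a median log2 change of -0.22. Without knockout library 1, 14 fell. The medians in Heavy and Light RNA, on libraries of their own, were -0.22 and 0.04, against 0.02 and 0.05 over all genes tested. Fhl1, a LIM-domain protein, was at 115, 86.02 and 103 CPM in the control libraries and 25.2, 27.2 and 23.4 CPM in the knockout libraries (log2 change -1.95, SE 0.18, adjusted p = 7.94e-07). Cnn1, calponin, was at 58.3, 49.6 and 63.6 CPM in the control libraries and 15.2, 12.4 and 18.2 CPM in the knockout libraries (log2 change -1.84, SE 0.19, adjusted p = 3.93e-06). Both groups of libraries lay far apart for each gene. The enteric actin Actg2 fell from 41.5 ± 0.996 to 13.8 ± 2.50 CPM, the SM22 protein gene Tagln, which overlaps Pcsk7, from 395 ± 29.98 to 157 ± 44.7 CPM, and the myosin light chain Myl9 from 568 ± 23.3 to 311 ± 34.8 CPM. Tpm1 and Tpm4, tropomyosins that coat actin filaments, fell from 1194 ± 98.8 to 684 ± 86.1 CPM and 1539 ± 185 to 917 ± 55.9 CPM, and the actin-sequestering Tmsb4x from 721 ± 123 to 313 ± 35.7 CPM. Srf itself fell from 236 ± 17.7 to 120.2 ± 24.99 CPM (log2 change -0.98, SE 0.25). Only 3 members rose without control library 2, knockout library 2 or knockout library 3, and those that rose as reported included Flna, Pdlim1, Des and Mylk. Actb, the cytoplasmic beta actin, stayed at 5149 ± 375 and 5071 ± 648 CPM (log2 change -0.03, 95% interval -0.28 to 0.23), and the filament-severing Cfl1 was at 2179 ± 47.8 and 1797 ± 127 CPM (adjusted p = 0.305).

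**Figure D3:**
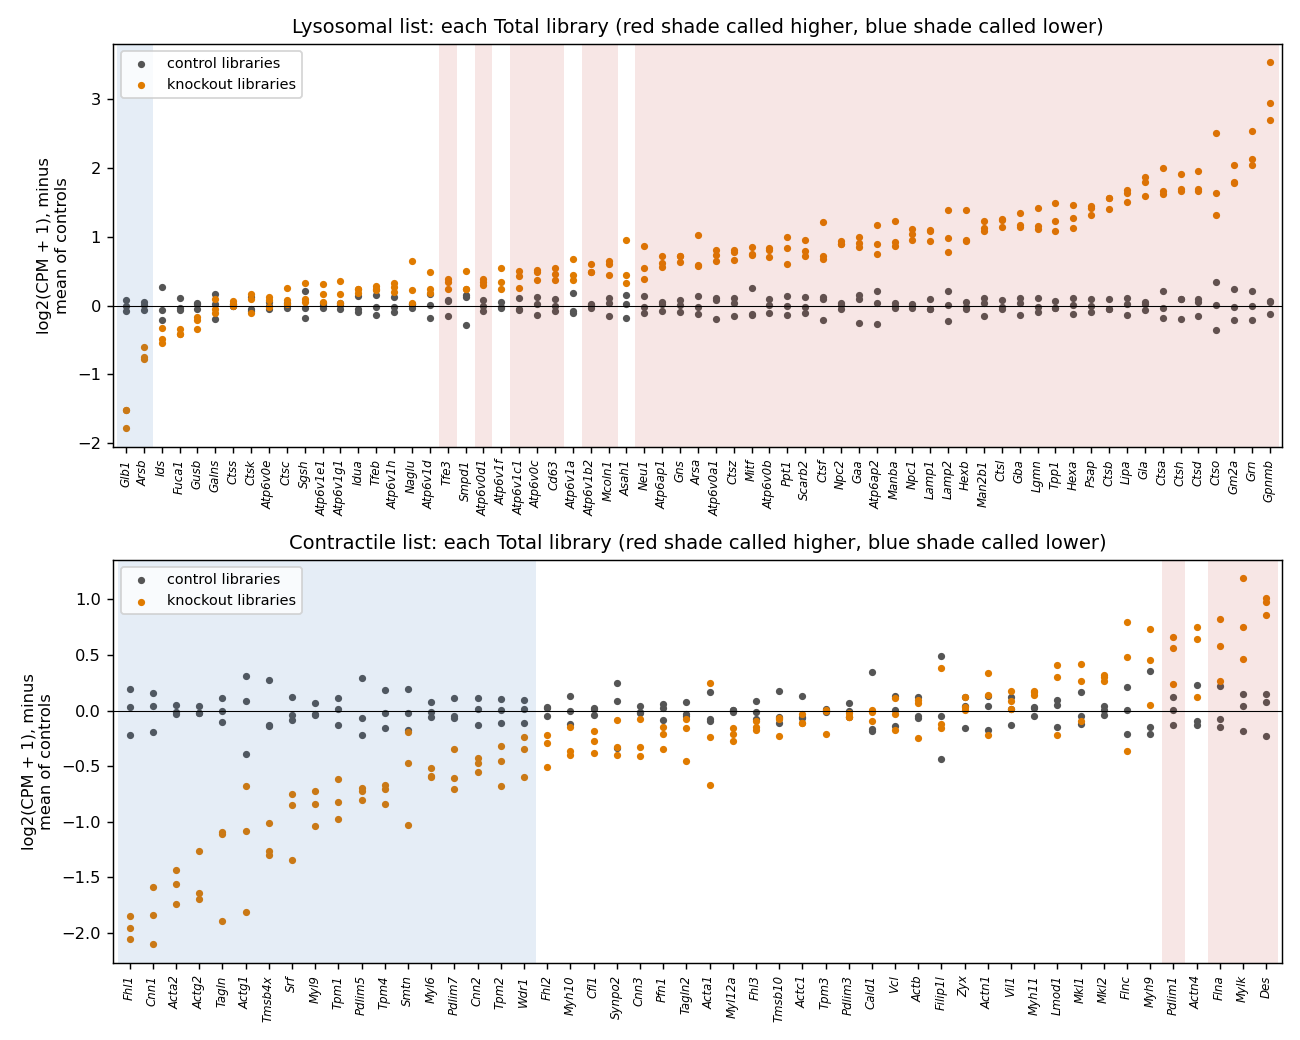
Each column is a gene of the lysosomal (top) or contractile (bottom) list, ordered by change, and each point is 1 Total library in log2(CPM + 1) units minus the mean of the controls, grey for control and orange for knockout. Red shade marks the 43 lysosomal and 4 of the 5 contractile genes called higher (the other one is not shown) and blue shade the 2 and 18 called lower.

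The CArG box, searched by its usual consensus on both strands and also chosen after the values were seen, was in 10 of the 46 contractile genes with a window (21.7%). The list was written to hold known SRF targets, so a high share was built into it. It was in 1.34% of all 9322 genes with a window and at least 1 CPM, in 3.91% of called genes at least 2-fold lower and in 0.955% of those at least 2-fold higher. The 2 holders in the list with the largest falls are shown, Fhl1 at chrX:56779433-56779732 on the plus strand and Actg1 at chr11:120348446-120348745 on the minus strand, with the box in capitals.
Fhl1: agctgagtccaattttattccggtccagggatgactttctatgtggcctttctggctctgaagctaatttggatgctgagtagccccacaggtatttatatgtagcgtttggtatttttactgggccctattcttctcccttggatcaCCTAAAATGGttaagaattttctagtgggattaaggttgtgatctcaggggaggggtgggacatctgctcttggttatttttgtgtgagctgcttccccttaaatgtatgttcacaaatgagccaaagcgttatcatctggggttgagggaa
Actg1: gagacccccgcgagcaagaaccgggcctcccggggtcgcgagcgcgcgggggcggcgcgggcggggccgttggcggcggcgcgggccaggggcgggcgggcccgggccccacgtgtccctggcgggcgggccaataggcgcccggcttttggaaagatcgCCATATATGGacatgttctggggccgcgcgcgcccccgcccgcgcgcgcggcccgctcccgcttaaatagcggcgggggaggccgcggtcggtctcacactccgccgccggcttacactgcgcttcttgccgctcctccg
The box begins 102 bases before the start of Fhl1 and 90 bases before that of Actg1.

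YAP is a transcription coactivator held in check by the Hippo pathway. Of 24 genes of that pathway and targets of YAP, 6 fell and none rose (median -0.21). Over all genes with at least 1 CPM 13.3% were lower. Only 4 of the list fell without control library 2 or 3 or knockout library 1 or 2. Its medians in Heavy and Light RNA were -0.03 and -0.0001, against 0.02 and 0.05 over all genes tested. The targets Ctgf and Cyr61, secreted matricellular proteins, fell from 749 ± 93.6 to 295 ± 95.2 CPM and 1696 ± 137 to 1121 ± 73.7 CPM, and Vgll3, a cofactor of the TEAD factors, from 131 ± 22.5 to 79.4 ± 15.4 CPM. Ankrd1, another target, was at 219 ± 31.9 and 213 ± 6.54 CPM, and the angiomotin gene Amotl2 at 565 ± 12.6 and 476 ± 35.5 CPM, neither called (adjusted p = 0.916 and 0.258). SRF and YAP targets overlap in part, since Thbs1, Ctgf and Cyr61 are known targets of both.

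Growth factor ligands and receptors were called in both directions. In the PDGF, VEGF and angiopoietin list 8 of 21 genes rose and 3 fell. Pdgfra, a receptor of mesenchymal cells, was at 26.2, 28.05 and 22.6 CPM in the control libraries and 99.5, 54.5 and 60.1 CPM in the knockout libraries (log2 change 1.40, SE 0.31, adjusted p = 0.00343), while the sister receptor Pdgfrb was at 159.7 ± 21.8 and 227 ± 48.2 CPM (adjusted p = 0.15). Angptl2, a secreted angiopoietin-like protein, was at 166, 160.5 and 182 CPM in the control libraries and 27.4, 44.9 and 43.7 CPM in the knockout libraries (log2 change -2.13, SE 0.22, adjusted p = 3.27e-06), in a gene that overlaps Ralgps1. The ligand Pdgfb and the VEGF receptor Flt4 rose from low levels, 0.165 ± 0.0648 to 1.95 ± 0.498 CPM and 0.246 ± 0.106 to 3.31 ± 0.351 CPM. Of 15 FGF ligands and receptors 1 rose and 1 fell (none fell without control library 2 or knockout library 2 or 3). Both shares were below the 16.1% and 10.3% of all genes tested. The one that rose was Fgfr1, from 145 ± 4.50 to 352 ± 11.4 CPM (log2 change 1.27, SE 0.10), though a second member was called higher without knockout library 2 or 3. Among receptors for HGF, GAS6 and neurotrophic factors and their ligands, 9 of 21 genes rose and 2 fell, the latter 1 without control library 1 or 2 or knockout library 2 or 3. They included Csf1r, the receptor of CSF1 and IL-34 (3.59 ± 0.558 to 8.84 ± 1.60 CPM), and Kitl, the KIT ligand (5.63 ± 2.47 to 13.01 ± 3.29 CPM). Il34 itself rose from 5.92 ± 0.128 to 13.4 ± 0.936 CPM.

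Secreted inhibitors of BMP signals were called in both directions. In the BMP list 4 of 25 genes rose and 5 fell, with a median of -0.03 and a share of rises near that of all genes. Fst, follistatin, was at 16.1, 11.7 and 13.3 CPM in the control libraries and 2.87, 4.40 and 4.03 CPM in the knockout libraries (log2 change -1.63, SE 0.20, adjusted p = 1.68e-05). Grem1, gremlin, fell from 17.03 ± 4.27 to 7.41 ± 0.787 CPM. Chrd, chordin, which overlaps Thpo, rose from 0.111 ± 0.0707 to 0.634 ± 0.143 CPM, and the follistatin-like Fstl3, which overlaps Prss57, from 0.744 ± 0.228 to 1.75 ± 0.371 CPM, the latter not called after quantile normalization (adjusted p = 0.0648). The ligand Bmp6, which overlaps Txndc5, rose from 2.05 ± 0.238 to 6.97 ± 1.37 CPM. Fstl1, a follistatin-like glycoprotein, was at 828 ± 64.3 and 863 ± 87.4 CPM and was not called (adjusted p = 0.782).

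Notch genes moved both ways, with 7 of 23 higher and 5 lower, the latter 3 without knockout library 1 or any 1 control library. Receptors Notch3 and Notch4 and the noncanonical ligand Dlk1 rose from 1.52 ± 0.441 to 9.40 ± 4.59 CPM, 1.24 ± 0.243 to 6.47 ± 1.87 CPM and 0.359 ± 0.106 to 5.19 ± 1.38 CPM, while Hey2, a target repressor, fell from 2.63 ± 0.247 to 0.544 ± 0.0647 CPM. The signal-transducing factor Rbpj was at 65.5 ± 7.43 and 98.7 ± 16.4 CPM (adjusted p = 0.119).

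Semaphorins, secreted or membrane cues read by plexins and neuropilins, were among the lists with the highest share called: 13 of 27 rose and 1 fell, with a median log2 change of 0.44. Sema3b was at 0.372, 0.825 and 0.702 CPM in the control libraries and 11.1, 6.10 and 5.45 CPM in the knockout libraries (log2 change 2.34, SE 0.32, adjusted p = 5.68e-05). Sema6b rose from 1.13 ± 0.227 to 5.73 ± 0.844 CPM. The exception was Sema3a, which was at 3.62, 2.23 and 1.77 CPM in the control libraries and 0.205, 0.0961 and 0.342 CPM in the knockout libraries (log2 change -1.51, SE 0.16, adjusted p = 5.15e-06). The abundant receptor genes Plxna1 and Plxnb2, the latter overlapping Mir7118, were at 468 ± 36.9 and 550.4 ± 101 CPM and 334 ± 39.98 and 331 ± 21.2 CPM, with groups that overlapped and no call (adjusted p = 0.284 and 0.979).

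Interleukin and TNF family genes rose more often than they fell. Of 30 interleukins and receptors 12 rose (6 without control library 3 and 7 without knockout library 1) and 2 fell (1 without control library 1 or 2 or knockout library 2 or 3). Il4ra and Il17rd, receptor genes, rose from 54.9 ± 7.37 to 118 ± 35.96 CPM and 2.50 ± 0.623 to 7.57 ± 0.965 CPM. Il1rl1, the IL-33 receptor ST2, was at 329.6, 363 and 287 CPM in the control libraries and 145, 90.3 and 85.9 CPM in the knockout libraries (log2 change -1.63, SE 0.25, adjusted p = 0.000133), with no overlap. The shared receptor Il6st was at 103 ± 6.25 and 139 ± 26.7 CPM (adjusted p = 0.235). Of 30 TNF ligands and receptors 11 rose (7 after median-of-ratios scaling or without control library 1 or 3) and 3 fell. The death receptor Fas rose from 1.96 ± 0.511 to 5.79 ± 2.56 CPM. Tnfrsf11b, osteoprotegerin, the decoy receptor that restrains osteoclasts, fell from 5.87 ± 1.002 to 0.914 ± 0.289 CPM (log2 change -1.84, SE 0.21). Tnfrsf21, a death-domain receptor, fell from 39.1 ± 2.65 to 17.9 ± 6.02 CPM.

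Inside the cell, some immediate early transcription factors and MAP kinase phosphatases were higher. Of 22 immediate early genes 9 rose (5 without control library 2) and 2 fell, with a median of 0.52. Klf4, a zinc finger factor, was at 3.43, 2.86 and 4.18 CPM in the control libraries and 24.98, 18.6 and 21.7 CPM in the knockout libraries (log2 change 2.34, SE 0.19, adjusted p = 2.08e-07). Jun and Klf2 rose from 54.01 ± 4.49 to 100.2 ± 7.58 CPM and 14.9 ± 0.605 to 29.1 ± 5.05 CPM, and Junb was at 129 ± 11.8 and 149.5 ± 9.15 CPM (adjusted p = 0.336). In a list of 20 MAP kinase phosphatase, Sprouty, Spred and ETS factor genes 6 rose (4 after quantile normalization or median-of-ratios scaling, or without control library 1 or knockout library 2) and none fell (1 fell without knockout library 1 or 2). They were the phosphatases Dusp1, Dusp4, Dusp8, Dusp10 and Dusp14 and the ETS factor Etv5, and no Sprouty or Spred gene was called. Dusp1 and Dusp4, which dephosphorylate MAP kinases, had the largest changes (16.9 ± 3.01 to 48.9 ± 2.43 CPM and 7.96 ± 1.24 to 28.001 ± 11.4 CPM). Of 25 RAS, RAF, MEK and ERK genes 1 rose and 2 fell, shares below the 16.1% and 10.3% of all genes tested. Only 1 fell without any 1 of the 6 libraries, and 2 rose without knockout library 2 or 3. The lower ones included Map2k2, the kinase MEK2, from 179 ± 21.004 to 71.03 ± 7.41 CPM. Among PI3K pathway genes Inpp4b, a phosphoinositide phosphatase, fell from 9.31 ± 3.41 to 1.52 ± 0.350 CPM. Rgs4, which shortens G protein signals, and Edn1, the vasoconstrictor endothelin, were among the 20 largest falls of genes with at least 5 CPM, from 15.3 ± 1.34 to 3.53 ± 0.115 CPM and 35.8 ± 6.60 to 7.80 ± 0.426 CPM.

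Among adhesion genes, integrins and immunoglobulin-domain molecules rose more often than they fell. Of 23 integrin subunits 9 rose (6 after quantile normalization) and 1 fell. Itgb7, a beta chain best known from lymphocytes, was at 5.85, 6.54 and 8.33 CPM in the control libraries and 38.3, 53.6 and 57.8 CPM in the knockout libraries (log2 change 2.68, SE 0.21, adjusted p = 1.53e-07). Itga3, a laminin-binding alpha chain, was at 91.5, 96.5 and 110.1 CPM in the control libraries and 279, 242 and 316 CPM in the knockout libraries (log2 change 1.47, SE 0.16, adjusted p = 6.77e-06). The common beta chain Itgb1 was at 535 ± 51.7 and 688 ± 26.9 CPM and was not called (adjusted p = 0.114). Of 26 immunoglobulin-domain adhesion genes 10 rose and 1 fell. Pvrl2, nectin-2, and Cadm4 rose from 29.7 ± 2.82 to 99.9 ± 18.1 CPM and 0.889 ± 0.215 to 6.94 ± 0.622 CPM, and Alcam fell from 26.3 ± 5.92 to 10.02 ± 1.16 CPM, while Vcam1 was at 181 ± 17.1 and 239 ± 45.3 CPM (adjusted p = 0.272). Cadherins and junction genes gave no such balance. Of 17 cadherin genes 5 rose and 3 fell, against 2 and 3 after quantile normalization and 1 and 2 without knockout library 2. Of 25 claudin, connexin and desmosomal genes 5 rose and 2 fell, against 2 and 3 after quantile normalization and 0 and 2 with a mean of at least 1 CPM. The gap junction gene Gja1, connexin 43, fell from 59.8 ± 10.3 to 28.6 ± 5.96 CPM, and the desmosomal plakophilin Pkp2 from 40.5 ± 7.53 to 21.1 ± 6.20 CPM.

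Genes for matrix-cutting enzymes and their inhibitors were called in part. Of 20 metalloproteinases and their inhibitors 10 rose, among them the inhibitors Timp4 and Reck (6 rose after quantile normalization) and 1 fell (none without control library 1 or 2 or knockout library 3). Mmp2, gelatinase A, was at 58.6, 77.1 and 71.05 CPM in the control libraries and 185, 119 and 136 CPM in the knockout libraries (log2 change 1.06, SE 0.26, adjusted p = 0.00653). Mmp9 and Mmp17 rose from low levels (0.143 ± 0.0777 to 2.07 ± 0.189 CPM and 0.983 ± 0.179 to 3.44 ± 0.124 CPM), and Timp2 and Timp3, which overlap BC100451 and Syn3, were at 574 ± 27.7 and 698 ± 86.4 CPM and 287 ± 24.1 and 306 ± 42.3 CPM with no call (adjusted p = 0.221 and 0.787). Of 23 plasminogen activation and serpin genes 8 rose and none fell (1 fell without knockout library 2). Plat, the tissue plasminogen activator, rose from 17.2 ± 4.86 to 51.8 ± 15.3 CPM, Serpinf1, the antiangiogenic factor PEDF, from 330.5 ± 38.3 to 577 ± 61.4 CPM, and the granzyme inhibitor Serpinb9 from 8.73 ± 1.55 to 25.4 ± 3.78 CPM. Of the ADAM and ADAMTS list 7 of 28 rose and 4 fell, with Adamtsl4 at 11.9 ± 1.84 to 43.2 ± 3.33 CPM and Adam12 at 60.97 ± 5.01 to 29.7 ± 4.20 CPM. In heparan sulfate metabolism the sulfatase Sulf1 rose from 7.31 ± 0.713 to 29.01 ± 5.82 CPM, and the sulfotransferase Hs3st3a1, which overlaps F930015N05Rik, fell from 3.16 ± 1.05 to 0.189 ± 0.127 CPM. Fn1, fibronectin, rose from 734 ± 93.97 to 1679 ± 206 CPM.

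In each family of carriers and channels more members rose than fell, where 16.1% of all genes tested were higher and 10.3% lower. Of 34 ion channel genes 9 rose and 5 fell, and of 24 amino acid transporters 6 rose and 3 fell (1 without control library 1), a balance near that of all genes. Of 19 glucose, lactate and nucleoside transporters 8 rose (5 after quantile normalization and 4 without control library 1) and 1 fell, and of 23 metal transporters and metallothioneins 6 rose and 1 fell. Of 30 ABC transporters 9 rose and none fell, among them the nucleotide exporter Abcc5 (35.1 ± 2.78 to 88.5 ± 6.17 CPM), while Abcc1 was at 312 ± 14.7 and 346 ± 33.1 CPM (adjusted p = 0.381). Slc38a7, a lysosomal glutamine carrier, and the glycine carrier Slc6a9, which overlaps Ccdc24, rose from 27.7 ± 2.03 to 68.4 ± 4.19 CPM and 26.9 ± 3.57 to 73.9 ± 15.4 CPM. The metallothioneins Mt1 and Mt2, which bind zinc and copper, rose from 33.7 ± 1.92 to 72.4 ± 13.1 CPM and 17.3 ± 1.51 to 44.7 ± 12.1 CPM. The glucose transporter Slc2a1 rose from 79.4 ± 8.21 to 137 ± 19.4 CPM. In each of these families the called members were a minority. Aqp1, a water channel, was at 49.4, 50.9 and 52.6 CPM in the control libraries and 144, 131 and 161 CPM in the knockout libraries (log2 change 1.49, SE 0.12, adjusted p = 2.18e-07). The potassium channel Kcnn4 rose from 0.660 ± 0.0442 to 5.60 ± 2.21 CPM and Kcnj2 fell from 6.71 ± 1.24 to 1.86 ± 0.717 CPM. Enzymes of lipid mediators and of methyl transfer also changed. Ptgs1, the constitutive cyclooxygenase, rose from 50.2 ± 2.23 to 160.2 ± 10.7 CPM (log2 change 1.65, SE 0.09). Ahcy and Mat2a, which remove and supply the intermediates of methyl transfer, fell from 412 ± 25.9 to 271 ± 61.8 CPM and 215 ± 22.6 to 135 ± 19.7 CPM, and Nnmt, a methyl-consuming enzyme, rose from 5.14 ± 0.717 to 14.1 ± 3.62 CPM. Mat2a overlaps Ggcx and 4930414L22Rik.

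**Figure D4:**
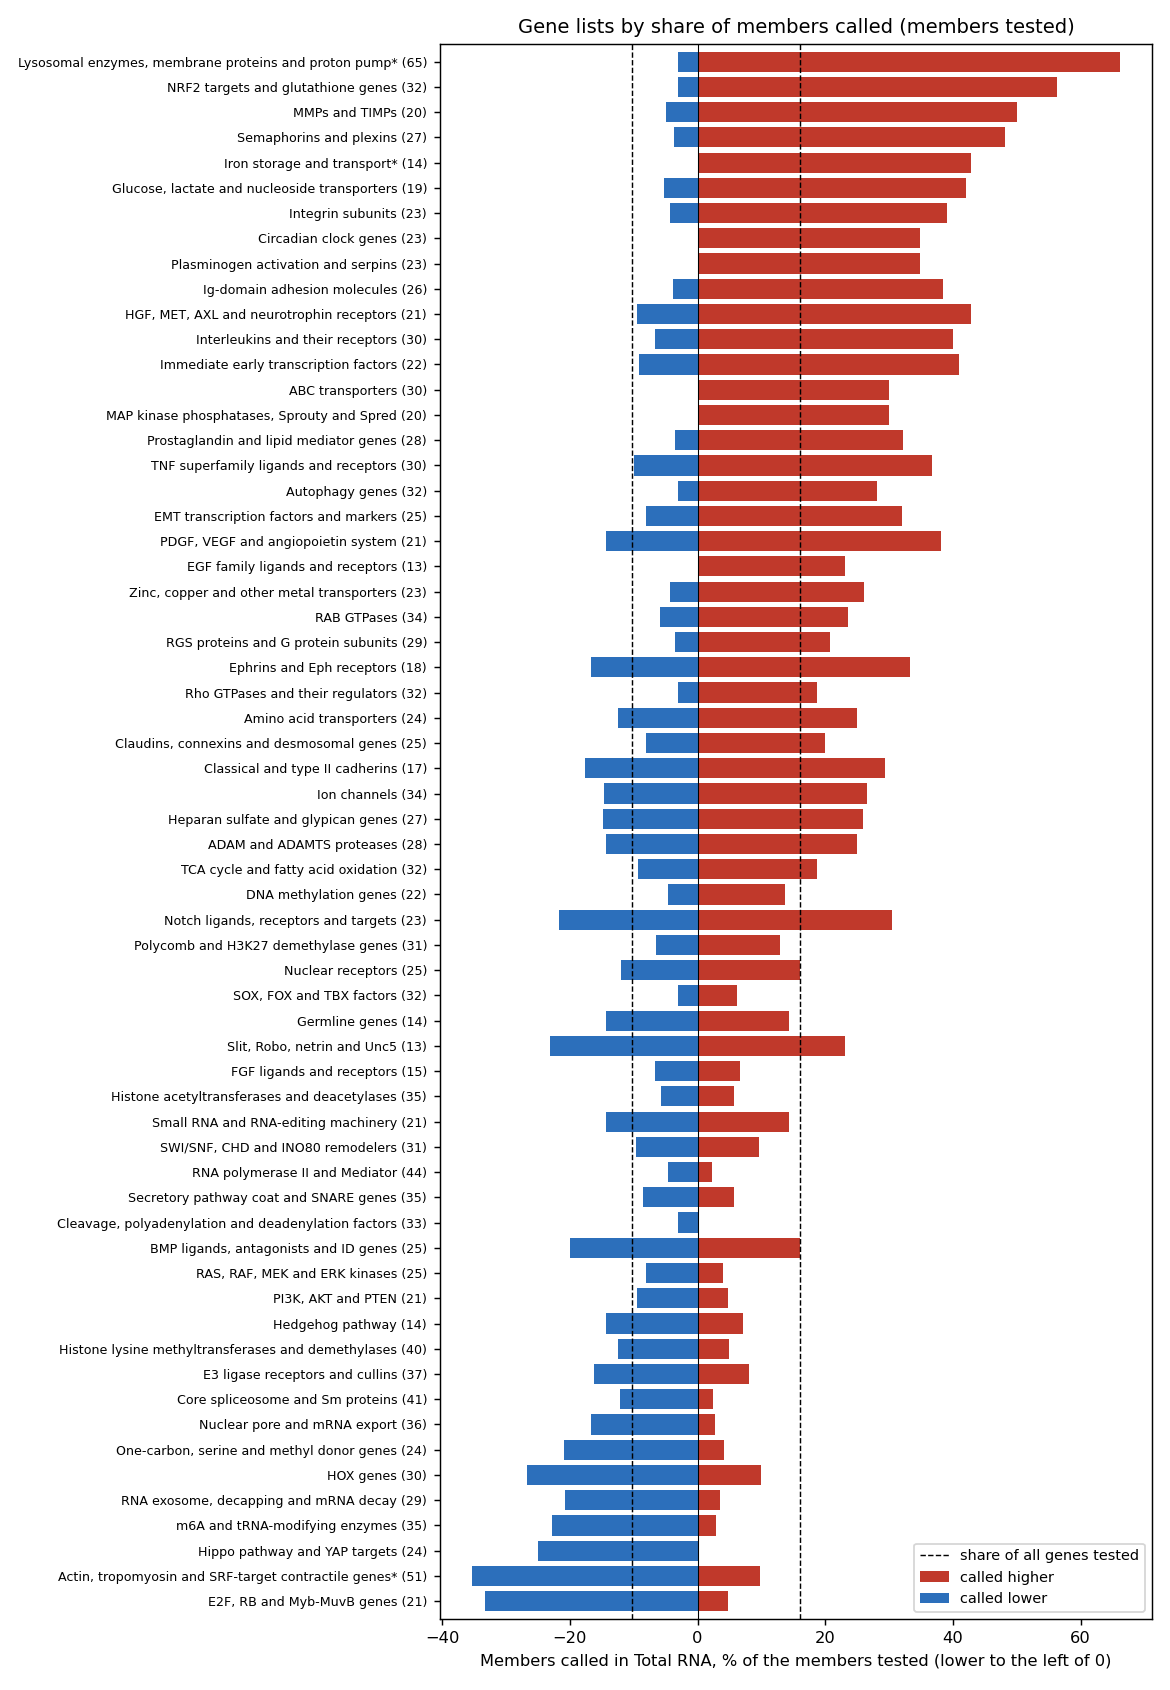
Bars give the share of each list's tested members called higher (red, to the right) and lower (blue, to the left) in Total RNA, in %, with the number tested in parentheses and an asterisk on the 3 lists written after the values were seen. Dashed lines mark 16.1% and 10.3%, the shares over all genes tested, and the lysosomal, NRF2, metalloproteinase and semaphorin lists lie farthest to the right.

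Transcription factor families differed in direction. Of 21 E2F, RB and Myb-MuvB genes 7 fell (4 without control library 1 or knockout library 3) and 1 rose (2 without knockout library 3). Mybl2, which drives late cell cycle genes and overlaps Mir7003, fell from 144 ± 12.7 to 58.2 ± 17.8 CPM, and the repressors E2f7 and E2f8 fell from 53.5 ± 1.84 to 27.8 ± 7.26 CPM and 22.4 ± 2.44 to 12.04 ± 1.92 CPM. Of 30 HOX genes 8 fell (5 without control library 1) and 3 rose (1 without control library 1 or knockout library 1), with Hoxb7 and Hoxd8 falling from 24.04 ± 1.09 to 13.5 ± 0.798 CPM and 30.4 ± 2.11 to 17.5 ± 0.840 CPM. Of 23 circadian clock genes 8 rose and none fell, among them the repressor Bhlhe41 (3.02 ± 0.872 to 8.996 ± 1.69 CPM). Sox9, the chondrocyte factor, rose from 10.5 ± 1.13 to 27.1 ± 3.52 CPM, while the cartilage genes Col2a1 and Acan were not called (adjusted p = 0.629 and 0.159). Of 25 nuclear receptors 4 rose (2 without control library 1) and 3 fell (6 after quantile normalization), shares near those of all genes. The estrogen receptor gene Esr1 was at 525, 514 and 590.4 CPM in the control libraries and 1003, 979 and 1169 CPM in the knockout libraries (log2 change 0.95, SE 0.14, adjusted p = 0.000136). The orphan receptor Nr2f6 fell from 83.7 ± 7.18 to 35.7 ± 2.09 CPM. Single chromatin genes changed strongly within families that were mostly uncalled. Hdac11, a deacetylase, and Dnmt3l, a cofactor of DNA methylation whose gene overlaps Aire, rose from 3.02 ± 0.392 to 12.95 ± 1.77 CPM and 1.15 ± 0.0924 to 7.67 ± 1.47 CPM. The linker histone Hist1h1c rose from 7.10 ± 0.324 to 38.5 ± 3.56 CPM. Of 40 histone lysine methyltransferases and demethylases 2 rose and 5 fell. Over all genes with at least 1 CPM 16.9% were higher and 13.3% lower, so the list was below the first share and near the second. With any 1 of the 6 libraries left out only 0 to 3 fell, and with control library 2 or 3 or knockout library 1 left out none rose.

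In the RNA machinery the few called genes were mostly lower, except in the list of small RNA and RNA-editing genes. Over all genes with at least 1 CPM 16.9% were higher and 13.3% lower. The share lower was near that in the nuclear pore, spliceosome and small RNA lists. It was below it in the RNA polymerase II and Mediator and the cleavage lists. Of 36 nuclear pore and export genes 6 fell and 1 rose, the latter none without control library 2 or 3 or knockout library 3. Aaas and Nup35, pore proteins, fell from 172 ± 10.8 to 94.9 ± 10.8 CPM and 64.7 ± 2.49 to 40.7 ± 3.80 CPM, and the export factor Alyref was at 235 ± 4.28 and 200.3 ± 15.8 CPM (adjusted p = 0.236). Of 35 m6A and tRNA-modifying enzymes 8 fell (4 to 5 without any 1 control library or knockout library 1) and 1 rose (2 without control library 1 or knockout library 1). The demethylase Fto fell from 139 ± 8.76 to 83.4 ± 7.60 CPM, and the methyltransferase Mettl3, which overlaps Tox4, rose from 26.6 ± 0.943 to 45.6 ± 3.77 CPM. Of 29 RNA exosome and decay genes 6 fell (3 without knockout library 1) and 1 rose (none without control library 1 or 2 or any 1 knockout library). Of 21 small RNA and RNA-editing genes 3 rose (1 without control library 2 or knockout library 3) and 3 fell (1 without control library 3 or knockout library 1). Of 41 spliceosome genes 5 fell (1 to 3 with any 1 library left out) and 1 rose (0 to 2 with 1 left out), and Snrpa1 fell from 84.9 ± 3.02 to 53.7 ± 6.85 CPM. Of 44 RNA polymerase II and Mediator genes 1 rose (2 without control library 3 or knockout library 1) and 2 fell, and of 33 cleavage and polyadenylation genes none rose and 1 fell (none without control library 1). With the Total libraries fitted alone, 18 spliceosome genes and 7 RNA polymerase II and Mediator genes fell. In protein turnover, Skp2, which marks cell cycle inhibitors for degradation and overlaps Lmbrd2, and Fbxo5, an inhibitor of the anaphase-promoting complex, fell from 58.9 ± 4.98 to 29.4 ± 3.48 CPM and 32.1 ± 8.02 to 15.4 ± 0.388 CPM, and the ligases Klhl24 and Nedd4l rose from 3.02 ± 0.682 to 10.1 ± 2.91 CPM and 17.4 ± 1.89 to 35.8 ± 3.14 CPM.

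Outside these lists, several of the largest changes of genes with at least 5 CPM had roles of their own. Crip2, a LIM-domain protein, was at 2.76, 3.34 and 3.78 CPM in the control libraries and 40.8, 30.6 and 32.5 CPM in the knockout libraries (log2 change 3.05, SE 0.16, adjusted p = 4.74e-09). Parp10, a mono-ADP-ribosyltransferase, was at 2.55, 2.26 and 2.87 CPM in the control libraries and 39.7, 25.98 and 32.5 CPM in the knockout libraries (log2 change 3.23, SE 0.24, adjusted p = 9.13e-08). Adm2, a peptide hormone of the adrenomedullin family, and Mgst2, a microsomal glutathione transferase, rose from 1.44 ± 0.371 to 15.8 ± 4.47 CPM and 1.36 ± 0.294 to 15.5 ± 5.83 CPM. Among the falls, Galnt11, which starts O-linked glycans, was at 12.97, 13.7 and 11.8 CPM in the control libraries and 1.47, 1.49 and 1.83 CPM in the knockout libraries (log2 change -2.41, SE 0.10, adjusted p = 5.01e-10). Prr5l, a partner of mTORC2, was at 12.6, 12.5 and 12.1 CPM in the control libraries and 0.967, 2.14 and 1.78 CPM in the knockout libraries (log2 change -2.38, SE 0.17, adjusted p = 5.13e-08). Ercc4, a DNA repair endonuclease subunit, fell from 15.3 ± 1.36 to 3.45 ± 0.367 CPM and Fam198b, a Golgi protein, from 139 ± 18.8 to 34.7 ± 2.88 CPM. None of these had overlapping groups.

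Knockout libraries did not agree equally on every gene. The widest ratios of highest to lowest knockout library among called genes with at least 5 CPM included those of Scara5, C1s, Sfrp1, Cdsn, Isg15, Cyp26b1, Rgcc, Sepp1 and Sema3c. Scara5, a scavenger receptor, was at 0.0266, 0.384 and 0.122 CPM in the control libraries and 26.1, 5.65 and 6.36 CPM in the knockout libraries (log2 change 3.23, SE 0.64, adjusted p = 0.00132). C1s, a complement protease, was at 1.46, 2.40 and 1.46 CPM in the control libraries and 30.2, 8.46 and 8.998 CPM in the knockout libraries (log2 change 2.39, SE 0.49, adjusted p = 0.00179). Cyp26b1, which clears retinoic acid, was at 18.2, 20.2 and 22.005 CPM in the control libraries and 1.50, 7.40 and 9.32 CPM in the knockout libraries (log2 change -1.81, SE 0.48, adjusted p = 0.00975). For Scara5 and C1s the direction was shared by all 3 knockout libraries while the size differed, and the Cyp26b1 call was lost without knockout library 1 (adjusted p = 0.0559). Without knockout library 1, calls were also lost for Rgcc (0.0773) and Sema3c (0.0719).

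Position and length carried small shifts. Among genes with at least 1 CPM, the chromosome medians ran from -0.14 on chromosome X to 0.09 on chromosome 19, with that of every other chromosome between. On chromosome X 10.0% of 350 genes were higher and 19.1% lower, and on chromosome 19 24.9% of 426 were higher and 9.15% lower. By coding length the median went from -0.13 for the 193 genes of up to 300 coding bases to 0.04 for the 1974 genes of over 2700 bases. Of 1017 long noncoding RNA genes 12.0% were higher and 8.46% lower. Of 95 small nucleolar RNA genes 1 was higher and 29 lower. Most such RNAs lie inside introns of host genes, and the sources used here do not say how reads of host and guest were divided.

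Promoter windows of all genes were searched for 12 further short motifs. Of these, the ISRE core GAAANNGAA, the site of interferon-activated factors, was in 12.2% of the 419 called genes at least 2-fold higher, 5.03% of the 179 at least 2-fold lower and 6.78% of all 9322 genes. The AP-1 site TGANTCA was in 10.3%, 6.70% and 4.75%, and the TATA box TATAAA in 13.6%, 11.7% and 6.74%. The GAS element TTCNNNGAA was in 9.07%, 5.59% and 6.67%, and the ATF4 site TGATGNAA in 4.30%, 1.68% and 2.07%. Lower in rising genes, and to a lesser degree in falling ones, were the NRF1 site GCGCANGCG (5.49%, 7.26% and 14.8%), the YY1 site AAGATGGCG (0.477%, 1.68% and 3.50%) and the cyclic AMP element TGACGTCA (1.43%, 2.79% and 3.41%). The shares were 8.35%, 9.50% and 10.7% for the E-box CACGTG, 39.1%, 41.9% and 39.9% for CCAAT, 20.5%, 19.6% and 22.8% for the SP1 site GGGGCGGGG, and 1.43%, 1.12% and 1.77% for the E2F site as TTTCGCGC or TTTGGCGC. All motifs were read on both strands, and TTCNNNGAA, CACGTG and TGACGTCA read the same on each. Over all 1561 genes called higher the differences were smaller, at 8.84% for the ISRE core, 7.495% for AP-1 and 10.7% for NRF1. These are counts over genes that are not independent, with no test.

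**Figure D5:**
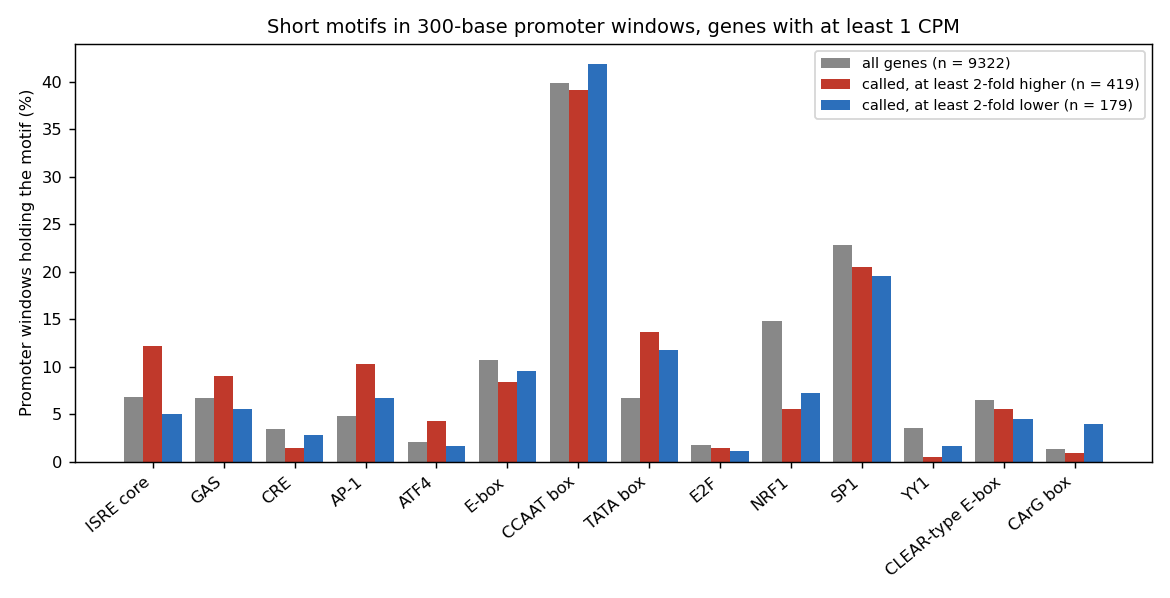
Bars give the share of RefSeq promoter windows that hold each motif, in %, for all genes with at least 1 CPM (grey, 9322), called genes at least 2-fold higher (red, 419) and at least 2-fold lower (blue, 179). The ISRE core, AP-1 and TATA box are more frequent in the red bars than in the grey ones, and NRF1 and YY1 less. In the blue bars AP-1 and the TATA box are also more frequent than in the grey ones, and NRF1 and YY1 less.

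The ISRE holders with the highest changes were Gbp2, Cdsn, Igtp and Irgm2. Gbp2, Igtp and Irgm2 encode interferon-induced GTPases, and Cdsn encodes corneodesmosin, an adhesive protein of the epidermis. Gbp2, which overlaps Mir6381, was at 1.22, 0.767 and 1.07 CPM in the control libraries and 33.01, 19.4 and 25.4 CPM in the knockout libraries (log2 change 3.71, SE 0.30, adjusted p = 2.54e-07). Cdsn was at 8.96, 11.2 and 9.25 CPM in the control libraries and 135, 47.7 and 77.95 CPM in the knockout libraries (log2 change 2.90, SE 0.42, adjusted p = 8.88e-05). Igtp and Irgm2 rose from 0.169 ± 0.0318 to 5.69 ± 1.95 CPM and 0.476 ± 0.147 to 7.16 ± 1.82 CPM. The windows of the 2 with at least 5 CPM and the highest changes are shown with the ISRE core in capitals, Gbp2 at chr3:142620413-142620712 on the plus strand and Cdsn at chr17:35542851-35543150 on the plus strand.
Gbp2: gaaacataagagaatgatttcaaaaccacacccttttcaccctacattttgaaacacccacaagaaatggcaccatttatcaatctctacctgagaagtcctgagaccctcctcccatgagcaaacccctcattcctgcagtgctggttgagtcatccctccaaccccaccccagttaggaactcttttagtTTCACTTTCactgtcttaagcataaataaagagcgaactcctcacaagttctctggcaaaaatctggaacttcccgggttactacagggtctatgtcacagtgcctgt
Cdsn: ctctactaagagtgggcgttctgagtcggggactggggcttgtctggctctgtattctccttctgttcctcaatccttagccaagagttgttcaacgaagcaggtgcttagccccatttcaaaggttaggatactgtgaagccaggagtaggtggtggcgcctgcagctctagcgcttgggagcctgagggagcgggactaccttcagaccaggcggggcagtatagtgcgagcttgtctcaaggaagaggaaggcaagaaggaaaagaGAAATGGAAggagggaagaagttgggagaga
Each window has 1 match. In Gbp2 it begins 58 bases before the start, whereas in Cdsn it begins after the start.

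The Total change was then set against that of the polysome fractions, which come from libraries of their own. Of the genes tested, 0.0114% had a Total change that differed from the Heavy change and 0% one that differed from the Light change, at an adjusted p under 0.05. At an unadjusted p under 0.05 there were 1388 genes (7.92%) for Heavy and 2851 (16.3%) for Light. With voom on the recovered reads, none were called for either and 1205 and 2860 had such an unadjusted p. The count for Light depends on the fit, since 1143 genes were called when the Total and Light libraries were fitted alone. Cngb1, a channel subunit gene, rose from 0.0495 ± 0.0264 to 1.78 ± 0.431 CPM in Total RNA (log2 change 1.39) and had a change of 0.37 in Heavy RNA, a difference of 1.02, SE 0.15 (adjusted p = 0.0295). The unnamed gene 4833412C05Rik fell from 2.42 ± 0.324 to 0.256 ± 0.0325 CPM (-1.44) against -0.31 in Heavy RNA, a difference of -1.13, SE 0.12 (adjusted p = 0.000775). Prmt1 was lower by 0.72 (log2) in Total RNA and had a change of -1.88 in Heavy RNA, a difference of 1.16, SE 0.30 (adjusted p = 0.251). For the leading genes the changes in the fractions were of the same sign: Sqstm1 had 1.79 in Total, 1.93 in Heavy and 2.66 in Light RNA, Grn 2.24, 2.14 and 3.16, Acta2 -1.58, -1.82 and -0.996, and Fabp5 -1.94, -2.24 and -2.37. Actg1 had -1.19, -0.83 and -0.13.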

How the data were processed

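Libraries were grouped by their sample labels. The authors deposited log2(CPM + 1) values for 19862 genes and 18 libraries, with CPM for counts per 1000000 reads. STAR, edgeR and the build mm10 are named, without versions, per the submitters' processing notes. No source used here names the read counter, the annotation or how strand was handled, so overlapping genes and near-identical copies are uncertain. Undoing the log2 gave whole reads, within 0.1, for 100% of values, and with them the depths, used for voom and median-of-ratios scaling. The design planned for either counts or logged values, and the form for logged values was used.

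The analysis fitted 6 group means over the 18 libraries with limma 3.58.1 (trend and robust variances) in R 4.3.3, for the 17515 genes above 0 in at least 3 libraries, and called genes at a Benjamini-Hochberg adjusted p under 0.05. The fit was tested on simulated data. Tables and figures were made in Python 3.11.15 with pandas 2.3.3, numpy 2.4.6 and matplotlib 3.10.9. Symbols missing from the table (336) or turned into dates (27) were taken from RefSeq where it had them, 362 in all. Coding lengths came from GENCODE.

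The rule for naming genes took Prmt1, Trp53 and Rb1, the 20 highest and 20 lowest changes among called genes with non-overlapping groups and at least 5 CPM, and the 15 largest gains and losses in CPM. It added, for each list, up to 4 called genes with the largest change and up to 2 abundant uncalled ones, the 10 genes that varied most among knockout libraries, the genes that differed most between Total and a fraction, and holders of promoter motifs. The text prints some of these, mostly those whose call held in every alternative that tested them. Genes named outside the rule, such as Ctsl, Gla, Keap1, Srf, Tagln, Myl9, Glb1, Arsb, Flna, Pdlim1, Des, Mylk, Mitf, Tfe3, Tfeb, Chrd, Fstl3, Dusp8, Etv5, Timp4 and the markers Runx2, Sp7, Alpl, Spp1, Col1a2, Col2a1, Acan and Krt14, were chosen after their values were seen. The members and the 62 gene lists were chosen with earlier results of these data known, and the lysosomal, iron and contractile lists and the TCACGTG and CArG motifs after the values described here had been seen. Deviations of Total control and knockout libraries of the same number had r = 0.264, -0.208 and 0.602 for numbers 1, 2 and 3. Those of different numbers had r from -0.477 to 0.184, below the values for numbers 1 and 3. The number was not taken as a pairing, but this check does not settle whether libraries were paired. A few genes are not reported here.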

Additional observations from a re-analysis of the deposited data

Results flagged for a closer look

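For 2 genes the knockout changed Total RNA by a different amount than Heavy polysome RNA in a test of the difference itself. For Cngb1 the Total change exceeded the Heavy change by 1.02 (log2), and for 4833412C05Rik it was below it, with a difference of -1.13. Both are weakly expressed, and neither difference was called when voom was used on the recovered reads. Nor was either called when a mean of at least 1 CPM was required. That filter can remove genes at such levels before the fit, so it is not a test of these differences.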

How the results depend on the processing

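The count of genes called in Total RNA was 4628, and with 1 library left out it ranged from 3598 to 4049. Over the other alternatives it went from 3603 (mean of at least 1 CPM) to 5828 (replicate block, with the Total libraries alone), and the block gave 3217 higher and 2611 lower. Whether library numbers stand for a pairing was not settled by the check, so the block is given as a variant and not as the design. Of the genes called as reported, 82.4% were also called after quantile normalization and 90.7% after median-of-ratios scaling. Of the 364 named genes that were called, 291 were called in every alternative that tested them, and none changed direction. A gene removed by the filter of 1 CPM was not counted as a lost call. A filter of 1 CPM removes weakly expressed members of the lists, and their counts of called members moved both ways with it. For example, metalloproteinases and inhibitors called higher went from 10 to 6. Autophagy genes called higher went from 9 to 11, and spliceosome genes called lower from 5 to 7.

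The difference of the Total change from the Heavy change was called for 2 genes as reported, 1 with genes above 0 in at least 1 library, 0 with a mean of at least 1 CPM, 0 with a pseudocount of 0.1, 0 with voom, 1 with the replicate block and 4 without all knockout libraries numbered 1. With 1 Total library left out the count ranged from 1 to 9 (9 without Total knockout 3). For Light it was 0 as reported, 17 after quantile normalization, 548 without trend and robust variances, 347 with a mean of at least 1 CPM, 1143 with the libraries of both fractions alone, 958 with the replicate block and 785 without all knockout libraries numbered 1. With 1 Total library left out it ranged from 0 to 2. The cause was not tested. Depth limits genes under about 0.1 CPM, where a few reads decide a value.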
